A study of Mus musculus with 19 samples.

Results

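The 8 genes described here encode fibrillins, elastin, fibulins and microfibril-associated proteins, the building blocks of elastic fibers: *Fbn1*, *Fbn2*, *Eln*, *Fbln1*, *Fbln2*, *Fbln5*, *Mfap2* and *Mfap5*. They were picked out by symbol, as a set drawn up with earlier results of these data known, and all 8 were found among the 24552 genes listed in both tissues. RNA sequencing libraries of the cornea and the conjunctiva came from C57BL/6 mice (C57BL/6 J in the study's methods) that ate ad libitum (AL, the control diet) or were kept on calorie restriction (CR), with 5 libraries of each diet for the cornea, and 4 of AL and 5 of CR for the conjunctiva. By the study's methods, the mice were inbred adult females, restriction was brought in gradually, the cornea samples were scraped epithelium, and the conjunctiva was removed by surgery. All sample titles carry the marks 6M and 50W, which the labels do not explain. Libraries are named by diet and by the number in their title, and the methods say that several tissues were taken from each mouse, so the tissues may share mice. Nothing in the labels says whether equal numbers mark the same mouse or whether libraries of a group came from separate mice, so p-values measure the spread between these libraries.

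An elastic fiber has a core of crosslinked elastin inside a sheath of microfibrils, which are strings of fibrillin molecules. Fibrillins also hold latent TGF-beta complexes in the matrix, fibulins link tropoelastin to the microfibril and to cells, and lysyl oxidases crosslink the elastin. In the conjunctiva these proteins are made mainly by fibroblasts of the stroma beneath the epithelium, while the corneal epithelium is a sheet of epithelial cells with few fibroblasts.

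Libraries held 10726717 to 14433441 counted reads in the conjunctiva and 10354125 to 14681223 in the cornea. Values below are normalized counts, that is, reads over the library's size factor, which was set within each tissue, and a count of 0 allows up to 3 reads, or 2.27 to 3.37 normalized counts depending on the library. Corneal epithelium markers such as *Krt12* and *Pax6* summed to between 485733 and 716665 normalized counts in the cornea libraries and between 85371 and 126627 in the conjunctiva libraries, where conjunctival epithelium markers such as *Krt4* and *Krt13* summed to between 36507 and 87821. The conjunctiva libraries varied widely in skeletal muscle markers, with sums of 11126 to 49450 in AL and 13096 to 112179 in CR, and AL 3 and CR 5 were the lowest of their diets.

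In the GRCm38.p6 assembly, *Fbn1* lies on chromosome 2 from 125300594 to 125506485 on the minus strand, *Eln* on chromosome 5 from 134702595 to 134747368 on the minus strand, and *Fbln1* on chromosome 15 from 85205949 to 85286294 on the plus strand. *Fbln2* lies on chromosome 6 from 91212460 to 91272540, *Fbln5* on chromosome 12 from 101746565 to 101819119 on the minus strand, *Mfap2* on chromosome 4 from 141010424 to 141015976 and *Mfap5* on chromosome 6 from 122513584 to 122529290, the plus strand holding the other 3. Genes on the opposite strand overlap 2442 exonic bases of *Fbn1* (*Gm9913*), 267 of *Eln* (*Gm30003*) and 129 of *Fbn2* (*Gm26507*), and reads from those stretches could belong to either gene, because it is not known whether counting used strand.

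Promoter windows, from 250 bases before to 50 bases after the start site, were taken from RefSeq for the same assembly, and 5 of the 8 genes had a window (*Fbn1*, *Fbln1*, *Fbln2*, *Fbln5* and *Mfap2*). The windows of *Fbn1* and *Fbln1* are shown because *Fbn1* was called in the conjunctiva and the log2 changes of *Fbln1* had opposite signs in the tissues. They lie at chr2:125506389-125506688 on the minus strand and at chr15:85205699-85205998 on the plus strand. Capitals mark matches, on either strand, to the GC box GGGCGG, the TATA box TATAAA, the CCAAT box CCAAT, the E-box CACGTG, the AP-1 element TGAGTCA or the SMAD element CAGAC, and positions are counted on the gene's strand with −1 as the base before the start site.
Fbn1: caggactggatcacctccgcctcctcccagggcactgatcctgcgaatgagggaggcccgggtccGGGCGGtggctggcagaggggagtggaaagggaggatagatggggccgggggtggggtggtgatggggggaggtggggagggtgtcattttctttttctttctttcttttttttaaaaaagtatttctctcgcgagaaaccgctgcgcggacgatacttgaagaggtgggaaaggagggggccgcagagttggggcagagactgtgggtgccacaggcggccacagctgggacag
Fbln1: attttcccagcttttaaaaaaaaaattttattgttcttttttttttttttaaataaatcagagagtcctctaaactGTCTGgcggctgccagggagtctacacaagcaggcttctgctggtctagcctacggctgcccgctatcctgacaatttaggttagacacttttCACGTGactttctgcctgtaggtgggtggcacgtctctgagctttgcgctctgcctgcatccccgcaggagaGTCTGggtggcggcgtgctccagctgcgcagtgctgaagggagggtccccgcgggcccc
The *Fbn1* window was 60.3% G and C and held 1 GC box, starting at position −185. The *Fbln1* window was 51.7% G and C and held 1 E-box at −81 and the SMAD element at −174 and −9, with no overlap between matches. RefSeq gave *Fbln1* a second, overlapping window at chr15:85205758-85206057, which holds the same E-box and SMAD elements and also 2 GC boxes, at −11 and 12 from its own start site. The 5 genes had 8 windows in all. Among 32851 windows of the same length, 35.7% held the GC box, 13.6% the TATA box, 37.4% the CCAAT box, 7.15% the E-box, 5.20% the AP-1 element and 49.6% the SMAD element.

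The first comparison asked which of these genes differed between diets in the conjunctiva. All 8 passed the filter (10 normalized counts or more on average), all 8 had a negative log2 change under CR, and 1, *Fbn1*, was called (limma, adjusted p under 0.05 over all tested genes and fold over 1.5). Over all 13929 tested genes, 0.359% were called in either direction, 0.136% were called lower, and 52% had a negative log2 change. An unadjusted p under 0.05 with a lower value was seen for 5 of the 8 genes and for 4.87% of all tested genes. For 4 of the 8, every CR library lay below every AL library, as for 1.95% of all tested genes. The median log2 change of the 8 was −0.58, beside −0.02 over all tested genes. In bulk tissue, fewer cells of a type and less RNA per cell cannot be told apart.

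*Fbn1* encodes fibrillin-1, the main fibrillin of adult microfibrils. It had 679, 655, 824 and 897 normalized counts in AL 1, 3, 4 and 5, and 321, 279, 367, 352 and 212 in CR 1 to 5. The highest CR library lay well below the lowest AL library. *Fbn1* fell from 764 ± 116 (SD, n = 4) to 306 ± 62.7 (n = 5), which was 59.9% lower, a log2 change of −1.33 ± 0.18 (SE, 95% interval −1.72 to −0.94, limma adjusted p = 0.00282). It ranked 8 among all tested genes by p. The call held without each library in turn, with log2 changes of −1.40 to −1.20 and limma adjusted p-values of 0.00145 to 0.0202.

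*Fbn2* encodes fibrillin-2, the fibrillin most abundant in developing tissue. It was the least abundant of the 8, with 37.0, 79.7, 72.1 and 30.9 normalized counts in the AL libraries and 12.7, 7.61, 22.2, 1.02 and 0 in CR 1 to 5. The diets did not overlap, but CR 4 held 1 read and CR 5 held 0 reads, below the floor. The means were 54.9 ± 24.5 (SD, n = 4) and 8.70 ± 9.14 (n = 5), with a log2 change of −3.21 ± 0.88 (SE, 95% interval −5.07 to −1.35) that was not called (limma adjusted p = 0.162). The ratio of the means was 6.31, smaller than the fold of 9.22 that the log2 change gives, because the fit averages log2 values and libraries near 0 weigh more there. The log2 change of *Fbn2* was −1.85 with a pseudocount of 10 (limma adjusted p = 0.0664), −2.07 with the share of genes at 0 reads as a covariate (limma adjusted p = 0.330) and −2.58 without CR 5 (limma adjusted p = 0.150).

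*Eln* encodes tropoelastin, the soluble unit of elastin. Its AL libraries held 1253, 751, 1432 and 1429 normalized counts and its CR libraries 434, 484, 669, 400 and 164. AL 3 was the lowest AL library and CR 5 the lowest CR library, and the diets did not overlap. The means were 1216 ± 321 (SD, n = 4) and 430 ± 181 (n = 5), 64.6% lower under CR, with a log2 change of −1.59 ± 0.38 (SE, 95% interval −2.44 to −0.74) that was not called (limma adjusted p = 0.162). Without CR 5, *Eln* was called at a log2 change of −1.27 (limma adjusted p = 0.0127). It was not called without any other single library (limma adjusted p = 0.0704 to 0.383). Its log2 change was −1.29 with the share of genes at 0 reads as a covariate (limma adjusted p = 0.314). With the library number as a block it was −1.66 (limma adjusted p = 0.587). Without both AL 3 and CR 5, the libraries lowest in skeletal muscle markers, the change was −1.49 (limma adjusted p = 0.000359), an alternative chosen after the data were seen.

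**Figure D1:**
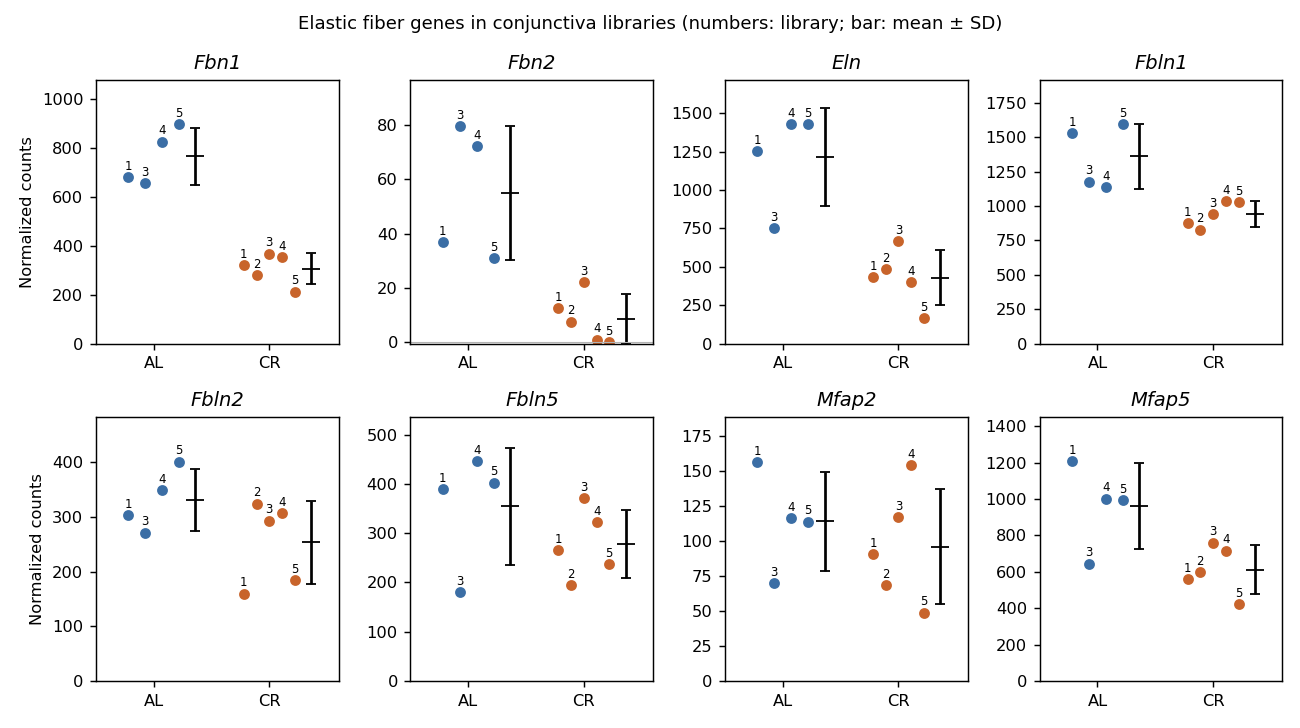
Normalized counts (vertical axes) of each of the 8 genes in the conjunctiva, by diet, with a point for each library labelled by its number and the mean ± SD beside it. CR points sit below all AL points for *Fbn1*, *Fbn2*, *Eln* and *Fbln1* and overlap with them for *Fbln2*, *Fbln5*, *Mfap2* and *Mfap5*.

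The fibulins were less uniform. *Fbln1*, whose product fibulin-1 binds elastin, fibronectin and basement membrane proteins, had 1534, 1178, 1136 and 1599 normalized counts in AL and 876, 829.04, 943, 1038 and 1027 in CR. The diets did not overlap, although CR 4 and AL 4 were close. The means were 1362 ± 238 (SD, n = 4) and 943 ± 91.7 (n = 5), with a log2 change of −0.52 ± 0.15 (SE) that was not called (limma adjusted p = 0.188). *Fbln2*, whose product fibulin-2 binds fibrillin-1 and tropoelastin, had 304, 272, 350 and 402 in AL and 160, 325, 294, 307 and 184 in CR. Only CR 1 and CR 5 lay below the AL libraries, and the log2 change was −0.43 ± 0.23 (SE, 95% interval −0.91 to 0.06, limma adjusted p = 0.588). *Fbln5*, whose product fibulin-5 organizes elastin on microfibrils, had 389, 181, 445 and 402 in AL and 265, 194, 372, 322 and 237 in CR. The lowest of all 9 libraries was AL 3, and the log2 change was −0.31 ± 0.26 (SE, 95% interval −0.87 to 0.25, limma adjusted p = 0.768).

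*Mfap2* and *Mfap5* encode the small microfibril-associated glycoproteins MAGP-1 and MAGP-2, which bind fibrillin. *Mfap5* had 1207, 644, 1002 and 992 normalized counts in AL and 560, 600, 760, 716 and 422 in CR. CR 1, CR 2 and CR 5 lay below all AL libraries, while CR 3 and CR 4 lay above AL 3. Its means were 961 ± 234 (SD, n = 4) and 612 ± 134 (n = 5), with a log2 change of −0.65 ± 0.20 (SE, 95% interval −1.07 to −0.22, limma adjusted p = 0.244). *Mfap2* had 156, 69.6, 116 and 114 in AL and 90.6, 68.5, 117, 154 and 48.8 in CR. Its diets overlapped over most of their range, and the log2 change was −0.30 ± 0.34 (SE, 95% interval −1.02 to 0.42, limma adjusted p = 0.835). The point estimate of *Fbn1*, −1.33, lies outside the intervals of *Fbln1*, *Fbln2*, *Fbln5*, *Mfap2* and *Mfap5*, and inside that of *Eln*. It is also just outside that of *Fbn2* (−5.07 to −1.35), whose estimate is the larger fall. The interval of *Fbn1* itself, −1.72 to −0.94, overlaps those of *Mfap2* and *Mfap5*. No test between genes was made.

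Fibroblast markers were lower in the same libraries. All 12 markers of the list had a negative log2 change (median −0.70), from −1.57 for *Col3a1* to −0.17 for *Dcn*. Of these, 10 had an unadjusted p under 0.05 and 2, the collagen genes *Col1a1* and *Col3a1*, were called. The summed level of the 12 markers was 49853 to 71934 normalized counts in AL and 29913 to 59866 in CR, and no marker was at 0 in any conjunctiva library. Macrophage markers were lower in 9 of 9 (5 at an unadjusted p under 0.05, 0 called, summed level 3167 to 4188 in AL and 2141 to 3207 in CR), fat cell markers were higher in 4 of 4 tested (2 at an unadjusted p under 0.05, 0 called, 103 to 990 in AL and 274 to 1401 in CR), and smooth muscle and pericyte markers were lower in 5 of 7 (0 called, 13606 to 35372 in AL and 11534 to 27381 in CR). Blood endothelium markers were lower in 8 of 8 (summed level 1843 to 2485 in AL and 748 to 2837 in CR) and skeletal muscle markers higher in 6 of 6, with 0 of either at an unadjusted p under 0.05. The part of these 5 other marker lists in the results was not tested.

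The mean log2 level of the fibroblast markers was 0.78 lower under CR, and the 8 genes were set against it. The markers fell unequally and include collagen genes, so this mean is not a measure of fibroblast number. Relative to the fibroblast markers, the log2 change of *Fbn2* was −2.43 ± 0.81 (SE, limma adjusted p = 0.0192) and that of *Eln* −0.81 ± 0.31 (limma adjusted p = 0.0314), and both were called lower, as were 0.115% of all tested genes. *Fbn1* had −0.55 ± 0.30 (SE, 95% interval −1.15 to 0.04) and was no longer called (limma adjusted p = 0.112). The remaining 5 had positive values that were not called, namely 0.26 for *Fbln1*, 0.35 for *Fbln2*, 0.47 for *Fbln5*, 0.47 for *Mfap2* and 0.13 for *Mfap5*. This scale moved the median of all tested genes to 0.76, with 42.5% of genes called higher and 6.19% with a negative change. The unadjusted limma p-value rose from 0.00211 under the authors' scaling to 0.00313 for *Fbn2*, and from 0.00208 to 0.00936 for *Eln*. Their adjusted p-values fell because the adjustment runs over all tested genes, many of which had small p-values on this scale. The 2 calls are therefore not stronger evidence than the main fit gave. With the fibroblast mean as a covariate in place of a scale, 0 of the 8 genes were called. The log2 change was then −0.79 for *Fbn1* (limma adjusted p = 0.209), −2.09 for *Fbn2* (limma adjusted p = 0.702) and −0.40 for *Eln* (limma adjusted p = 0.811).

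**Figure D2:**
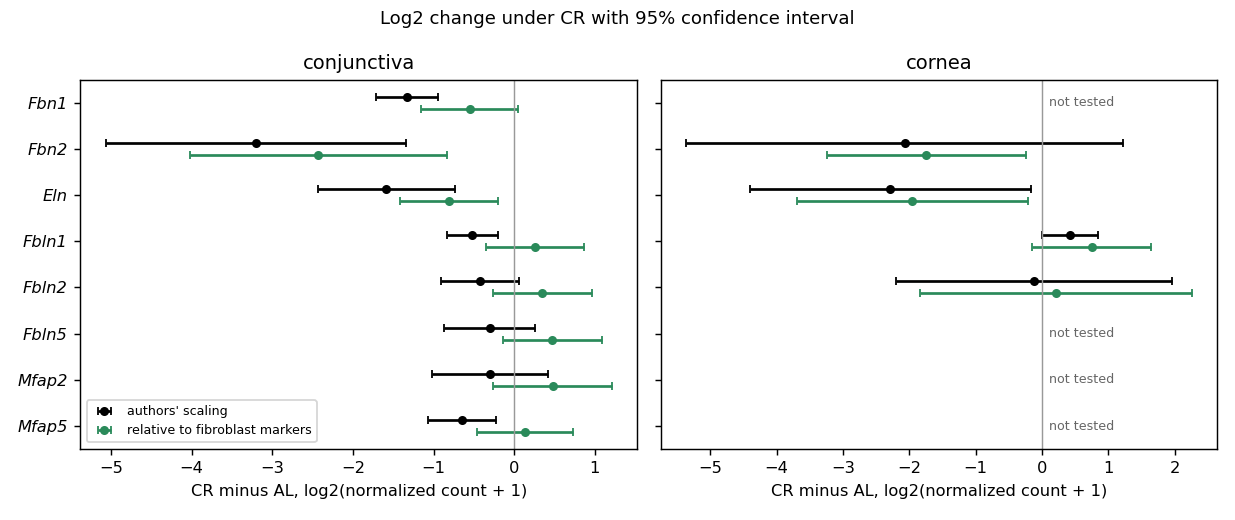
Log2 change under CR (horizontal axes, CR minus AL on the log2(normalized count + 1) scale) with its 95% confidence interval, for each of the 8 genes in the conjunctiva (left) and the cornea (right), under the authors' scaling (black) and relative to the fibroblast markers (green). In the conjunctiva, the estimates of *Fbn1*, *Fbn2* and *Eln* stay below 0 on both scales and those of the other 5 move from below to above 0. The interval of *Fbn1* relative to the fibroblast markers crosses 0. In the cornea, 4 genes were under the filter.

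Other genes of the elastic fiber pathway were taken from lists that leave out the 8 genes. Of all 7 lists, 0 genes were called in either direction in the conjunctiva. Among other microfibril and elastic fiber proteins, 13 of 14 tested genes had a negative log2 change (median −0.64), 9 of them at an unadjusted p under 0.05, against 4.87% of all tested genes. The smallest p-values belonged to *Fn1*, *Mfap4* and *Vcan*. *Fn1*, the gene of fibronectin, which microfibrils assemble on, had 801 ± 95.4 normalized counts in AL and 510 ± 104 in CR (log2 change −0.67 ± 0.17, SE, limma adjusted p = 0.117), with no overlap. *Mfap4*, whose product binds tropoelastin and fibrillin, had 666 ± 148 and 422 ± 151 (limma adjusted p = 0.297), and *Vcan*, the gene of the proteoglycan versican, had 209 ± 57.5 and 127 ± 25.5 (limma adjusted p = 0.320).

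Lysyl oxidases had a median log2 change of −0.76, with 4 of 5 lower and 2 at an unadjusted p under 0.05. *Loxl2* had 357 ± 44.3 normalized counts in AL and 212 ± 37.2 in CR, with no overlap (log2 change −0.76 ± 0.19, SE, limma adjusted p = 0.104). *Loxl1*, whose product crosslinks elastin at fibulin-5, had 823 ± 137 and 483 ± 172 (−0.83 ± 0.23, limma adjusted p = 0.180), and *Loxl4* had 73.8 ± 22.8 and 44.3 ± 18.6 (limma adjusted p = 0.546). The latent TGF-beta binding proteins and TGF-beta ligands were lower in 6 of 7 (median −0.39, 2 at an unadjusted p under 0.05), with the smallest p-values for the ligand *Tgfb2* (862 ± 146 and 660 ± 139, limma adjusted p = 0.470), *Ltbp3* (628 ± 57.2 and 504 ± 78.5, limma adjusted p = 0.531) and the ligand *Tgfb3* (192 ± 54.1 and 136 ± 32.4, limma adjusted p = 0.572).

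ADAMTS and ADAMTS-like partners of the microfibril had a median of −0.13, with 6 of 7 tested genes lower. *Thsd4*, whose product binds fibrillin-1 and promotes its assembly, had 742 ± 31.0 normalized counts in AL and 450 ± 120 in CR, with no overlap (log2 change −0.76 ± 0.18, SE, limma adjusted p = 0.0937). *Adamtsl4*, whose product also binds fibrillin-1, had the opposite sign, with 872 ± 164 and 1212 ± 129 (0.49 ± 0.15, limma adjusted p = 0.254), and *Adamts10* had 95.9 ± 28.0 and 71.2 ± 11.9 (limma adjusted p = 0.718). Integrins that bind fibrillins and fibulins were lower in 5 of 7 (median −0.20), and the smallest p-values belonged to *Itga5* (65.7 ± 16.7 and 36.8 ± 15.8, limma adjusted p = 0.509), *Itgb6* (251 ± 33.1 and 196 ± 24.2, limma adjusted p = 0.572) and *Itgb3* (123 ± 16.9 and 89.6 ± 41.3, limma adjusted p = 0.616).

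Proteases that degrade elastin were lower in 5 of 6 tested (median −0.35), with 2 at an unadjusted p under 0.05. *Mmp9* had 482 ± 131 normalized counts in AL and 224 ± 70.0 in CR, with no overlap (log2 change −1.12 ± 0.25, SE, limma adjusted p = 0.0767), *Ctss*, the gene of cathepsin S, had 1067 ± 109 and 820 ± 165 (limma adjusted p = 0.422), and *Mmp2* had 2076 ± 485 and 1365 ± 668 (limma adjusted p = 0.600). Genes for the handling of profibrillin and tropoelastin were lower in 4 of 5 (median −0.18). *Fkbp10*, a chaperone of matrix proteins, had 95.8 ± 14.5 and 58.8 ± 31.8 (limma adjusted p = 0.521), *Neu1*, a sialidase of the elastin receptor complex, had 340 ± 64.5 and 272 ± 20.4 (limma adjusted p = 0.604), and *Furin*, the protease that cleaves profibrillin, had 795 ± 26.8 and 703 ± 49.1 with no overlap (limma adjusted p = 0.707).

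**Figure D3:**
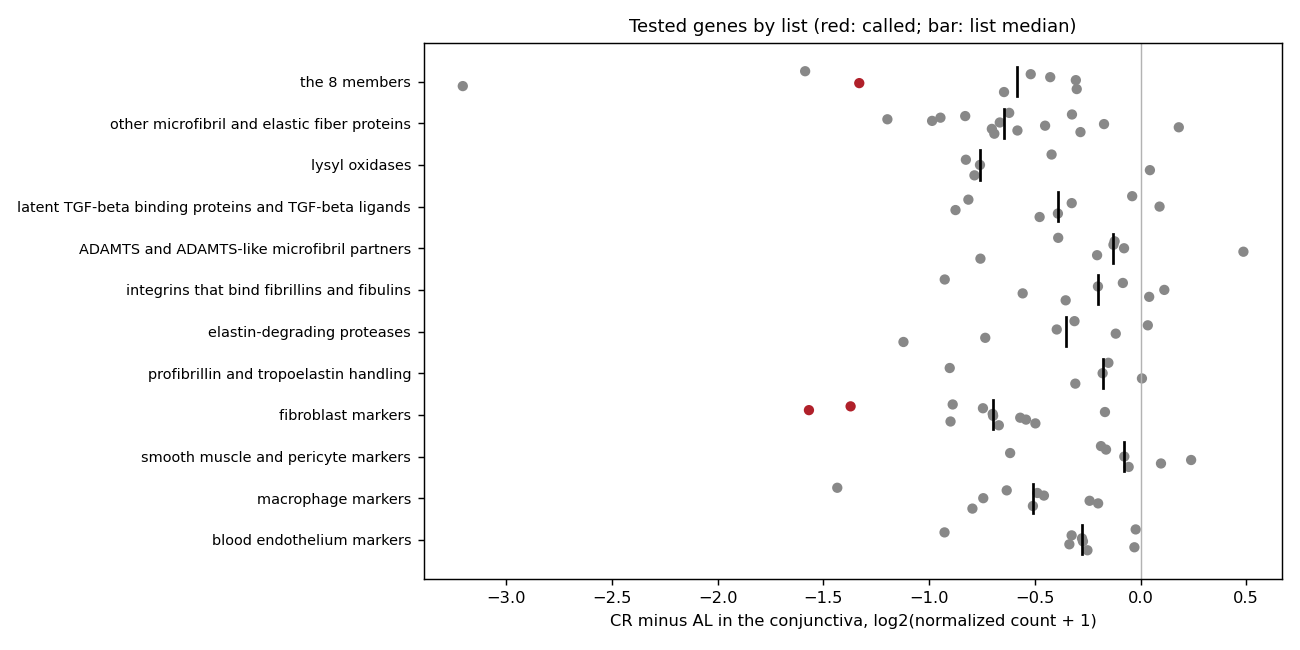
Log2 change under CR in the conjunctiva (horizontal axis, log2(normalized count + 1) scale) of every tested gene in the 8 genes, the 7 pathway lists and the marker lists of fibroblasts, smooth muscle and pericytes, macrophages and blood endothelium, with a point for each gene, red where called, and a bar at the median of the list. The called points are *Fbn1*, *Col1a1* and *Col3a1*, and medians of the lists drawn run from −0.76 for lysyl oxidases to −0.08 for smooth muscle and pericyte markers.

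The cornea gave a different picture of abundance. *Fbn1*, *Fbln5*, *Mfap2* and *Mfap5* fell under the filter, with means over 10 libraries of 5.65, 7.18, 1.14 and 9.72 normalized counts, and were left out of the main test. *Mfap2* was at 0 in 2 AL and 4 CR libraries and held at most 4 reads elsewhere. *Fbn1* was at 0 in AL 2 and AL 4 and in CR 2, CR 4 and CR 7, and it held at most 18 reads in any library. *Fbln5* ranged from 0 to 16.4 in AL and from 0 to 26.5 in CR, and *Mfap5* from 1.10 to 28.4 in AL and from 0 to 24.2 in CR. With the filter left out, these 4 genes had log2 changes of −0.79 to −0.25 (limma adjusted p = 0.663 to 0.914).

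Of the 4 genes tested in the cornea, 0 were called (limma), against 1.22% of all 12278 tested genes (0.472% lower), and 1, *Eln*, had an unadjusted p under 0.05 with a lower value, against 9.55% of all tested genes. *Fbn2* had 114, 140, 112, 0.884 and 62.8 normalized counts in AL 1 to 5 and 119, 9.42, 9.09, 12.3 and 0 in CR 1, 2, 3, 4 and 7. Each diet held libraries at both ends, since AL 4 had 1 read and CR 1 was as high as the higher AL libraries. The means were 86.1 ± 55.2 (SD, n = 5) and 30.0 ± 50.2 (n = 5), with a log2 change of −2.07 ± 1.47 (SE, 95% interval −5.37 to 1.22, limma adjusted p = 0.488). *Eln* had 27.5, 80.8, 44.7, 7.07 and 24.7 in AL and 36.1, 0, 0, 14.3 and 13.003 in CR. The diets overlapped, and the log2 change was −2.29 ± 1.01 (SE, 95% interval −4.41 to −0.17, limma adjusted p = 0.242). With array weights, which weigh each library by its scatter around the fitted diet means, *Eln* was called (log2 change −3.08, limma adjusted p = 0.0330). Over all tested genes, that setting called 705, against 150 in the main fit.

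*Fbln1* had the opposite sign in the cornea. It had 145, 157, 201, 288 and 229 normalized counts in AL 1 to 5 and 197, 252, 256, 300 and 340 in CR 1, 2, 3, 4 and 7. The diets overlapped, with AL 4 higher than 3 of the CR libraries. The means were 204 ± 57.8 (SD, n = 5) and 269 ± 54.0 (n = 5), with a log2 change of 0.42 ± 0.20 (SE, 95% interval −0.0046 to 0.84, limma adjusted p = 0.281). *Fbln2* ranged from 2.18 to 19.6 in AL and from 0 to 26.0 in CR (log2 change −0.12 ± 0.99, SE, limma adjusted p = 0.964).

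**Figure D4:**
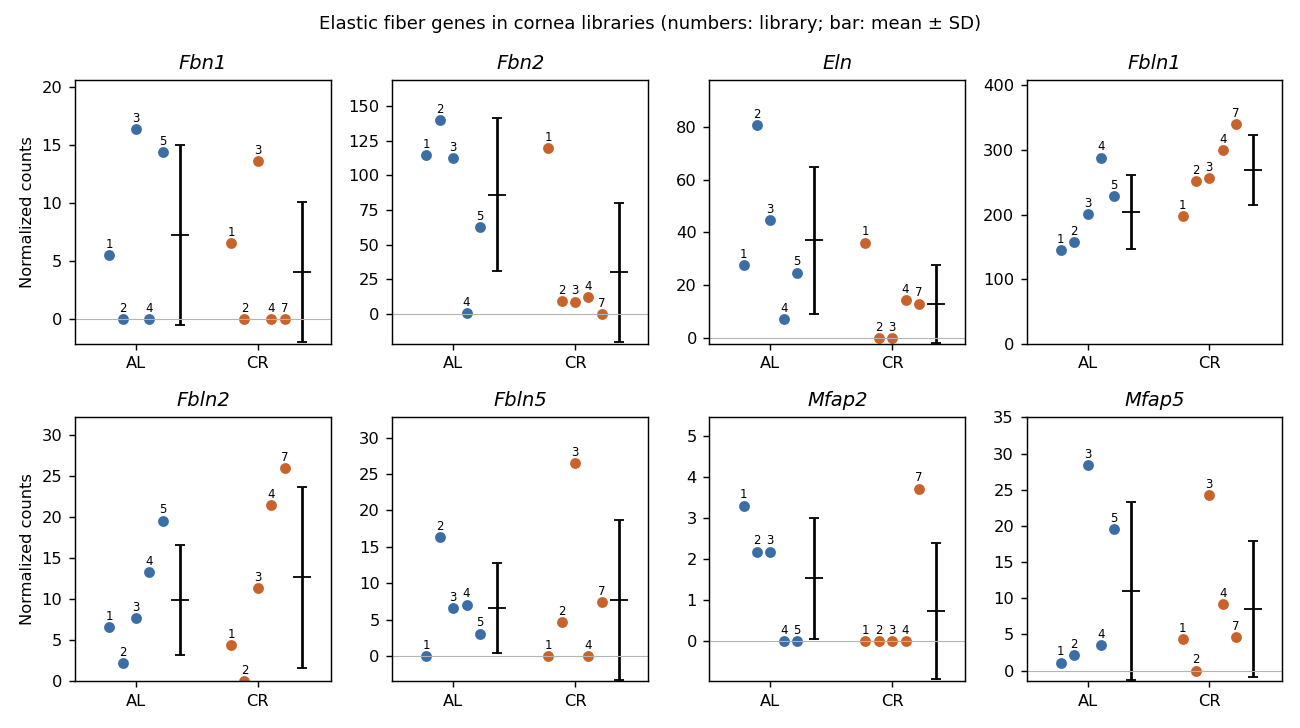
Normalized counts (vertical axes) of each of the 8 genes in the cornea, by diet, with a point for each library labelled by its number and the mean ± SD beside it. The AL and CR points overlap for all 8 genes, and *Fbn2* splits each diet into high and low libraries.

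The share of genes with 0 reads in a cornea library moved with these values. *Fbn2* was between 62.8 and 140 normalized counts in AL 1, 2, 3 and 5 and CR 1, where 38.7% to 40.7% of genes had 0 reads. It was at most 12.3 in AL 4 and CR 2, 3, 4 and 7, where the share was 42.7% to 47.6%. *Eln* was 24.7 to 80.8 in the first 5 libraries and 0 to 14.3 in the other 5, and *Fbln1* was 145 to 229 in the first and 252 to 340 in the other 5. The first 5 libraries held 10354125 to 11251254 counted reads and the other 5 held 11258292 to 14681223. As a group, the libraries with more genes at 0 were thus those with more reads, although AL 5 and CR 4 were close, and the cause was not tested. The first 5 libraries were all AL but CR 1 and the other 5 all CR but AL 4. The share of genes at 0 therefore overlaps with diet. With this share as a covariate, the log2 change of *Fbn2* turned to 1.11 (limma adjusted p = 0.562), that of *Eln* became −0.56 (limma adjusted p = 0.887) and that of *Fbln1* became 0.05 (limma adjusted p = 0.955). Fibroblast markers in the cornea summed to 1009 to 2257 normalized counts in AL and 527 to 2370 in CR, with 5 of 11 tested markers lower and 0 called. Relative to these markers, whose mean log2 level was 0.33 lower under CR, *Fbn2* had −1.74 (limma adjusted p = 0.649), *Eln* −1.96 (limma adjusted p = 0.701), *Fbln1* 0.75 (limma adjusted p = 0.877) and *Fbln2* 0.21 (limma adjusted p = 0.962). On that scale 0 of the 4 were called, against 0.171% of all tested genes called lower and 0.106% called higher, and 21.4% of genes had a negative change.

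**Figure D5:**
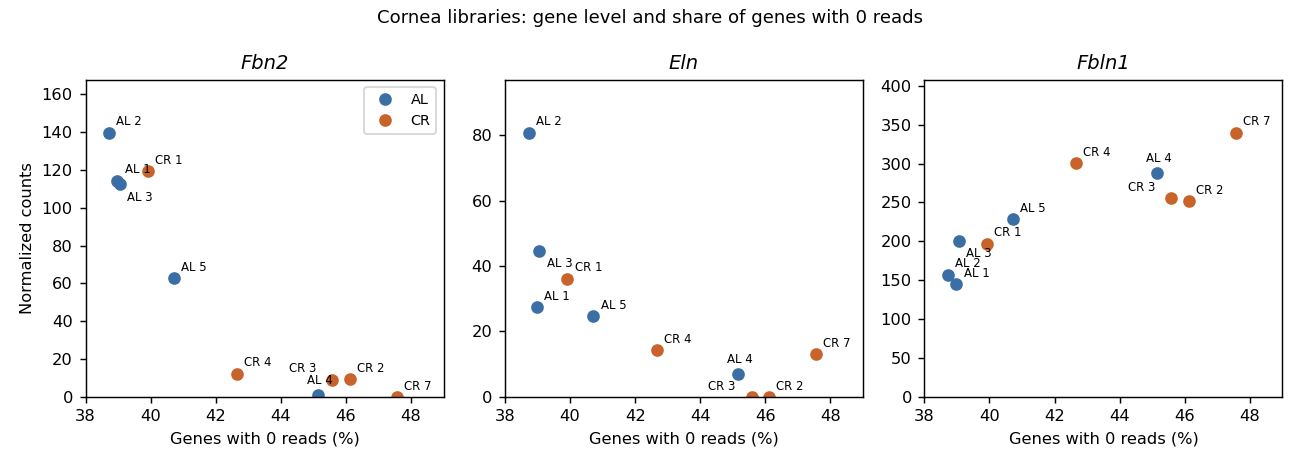
Normalized counts of *Fbn2*, *Eln* and *Fbln1* (vertical axes) against the percentage of genes with 0 reads (horizontal axes) in the 10 cornea libraries, colored by diet. *Fbn2* and *Eln* are high at shares of 38.7% to 40.7% and low from 42.7% on, and *Fbln1* runs the other way.

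Other pathway genes in the cornea had 0 calls in all 7 lists, against 1.22% of all tested genes. *Ltbp4*, which encodes a latent TGF-beta binding protein and is named here after its values were seen, had 574 ± 66.3 normalized counts in AL and 837 ± 126 in CR, with no overlap. Its log2 change of 0.54 ± 0.13 had an adjusted p of 0.0474 by limma but was under the fold limit, and in the conjunctiva it was 0.09 ± 0.16 (limma adjusted p = 0.902). Of the genes named above for the conjunctiva, *Adamtsl4* was again higher under CR (545 ± 142 and 710 ± 141 normalized counts, log2 change 0.40 ± 0.18, SE, limma adjusted p = 0.241), *Neu1* was lower (278 ± 57.6 and 177 ± 44.0, limma adjusted p = 0.109) and *Fn1* had 1335 ± 100 and 1281 ± 160 (log2 change −0.07 ± 0.11, limma adjusted p = 0.792). *Mfap4*, *Vcan*, *Loxl2*, *Tgfb3*, *Adamts10*, *Itga5*, *Itgb3*, *Mmp9* and *Fkbp10* were under the filter there.

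Whether the diet effect differed between tissues was tested for the 4 genes measured in both. Of these, 0 passed an adjusted p under 0.05, as did 0.0168% of the 11929 genes tested in both tissues, and 1, *Fbln1*, had an unadjusted p under 0.05, as did 7.48%. *Fbln1* came nearest, with a log2 change of −0.52 in the conjunctiva and 0.42 in the cornea. The difference was −0.94 ± 0.25 (SE, p adjusted over all genes from the limma fits = 0.278), and the difference ranged from −1.07 to −0.83 without each library in turn. This test takes the tissues as independent, and with libraries paired by the title they share the difference was −0.80 (limma adjusted p = 0.903). Differences of −1.13 ± 1.71 for *Fbn2*, 0.70 ± 1.07 for *Eln* and −0.31 ± 1.02 for *Fbln2* were smaller than their standard errors.

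Levels were set side by side across tissues as RPM, the recovered reads of a gene scaled to a fixed library total, since each tissue was scaled in its own table. No test was made on them. The 8 genes together took 437 ± 80.4 RPM in AL conjunctiva (SD, n = 4), 234 ± 49.6 in CR conjunctiva (n = 5), 31.4 ± 4.68 in AL cornea (n = 5) and 30.0 ± 4.03 in CR cornea (n = 5). All AL conjunctiva libraries, at 318 to 492, lay above all CR conjunctiva libraries, at 169 to 307, and the cornea diets overlapped. In AL libraries, *Fbn1* had 64.6 ± 9.74 RPM in the conjunctiva and 0.632 ± 0.683 in the cornea, a ratio of 102, and *Mfap5* had 81.6 ± 20.9 and 0.957 ± 1.09, a ratio of 85.2. The ratios of *Fbln5*, *Fbln2* and *Eln* were 52.6, 33.0 and 32.3, and that of *Fbln1* was 6.54. No ratio is given for *Mfap2*, which held 0 to 3 reads in the AL cornea libraries, at or under the floor, against 62 to 194 in the conjunctiva. For these 7 genes every conjunctiva library lay above every cornea library of the same diet. The share of all genes set apart in this way was not computed, so the count cannot be read as particular to these genes. *Fbn2* had 4.64 ± 2.04 in the conjunctiva and 7.42 ± 4.75 in the cornea, with overlapping libraries.

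Per length, levels in AL conjunctiva ran from *Fbln1* at 26.4 ± 4.72 RPKM (RPM over the exonic length in kilobases, SD, n = 4) through *Mfap5* at 22.7 ± 5.83, *Eln* at 12.7 ± 3.44, *Mfap2* at 7.98 ± 2.59, *Fbn1* at 5.33 ± 0.80, *Fbln2* at 4.41 ± 0.75 and *Fbln5* at 4.35 ± 1.48 to *Fbn2* at 0.351 ± 0.155. Only the last step, from *Fbln5* to *Fbn2*, separated neighbours whose libraries did not overlap. Under CR the order was *Fbln1* (17.1 ± 1.32), *Mfap5* (13.7 ± 3.50), *Mfap2* (6.31 ± 2.68), *Eln* (4.31 ± 2.04), *Fbln5* (3.22 ± 0.94), *Fbln2* (3.18 ± 0.996), *Fbn1* (2.02 ± 0.50) and *Fbn2* (0.0554 ± 0.0598), and again only *Fbn2* stood apart from its neighbour. In the cornea, *Fbln1* led in both diets, at 4.03 ± 1.155 in AL and 5.34 ± 0.97 in CR, and was the only gene apart from its neighbour, the other 7 lying between 0.0297 and 0.562. The study's methods name an oligo(dT)-primed kit and the labels a stranded mRNA kit. If reads came mainly from transcript ends, length correction would understate long genes such as *Fbn1* and *Fbn2*. The order per length therefore depends on a library type that was not settled.

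Within the conjunctiva, the genes also varied from library to library within a diet. After the diet means were subtracted, the 21 pairs of the 7 genes that averaged 50 normalized counts or more had a median Pearson r of 0.59 over 9 libraries, beside a median of −0.05 between these genes and all 11288 genes at that level. The values share their libraries, and r is given as a description. *Eln* with *Fbln2* had the median r, and 15.5% of all genes at that level had a higher r with *Eln*. A higher r with *Fbn1* than that of *Eln* was held by 1.68%, and a higher r with *Mfap2* than that of *Mfap5* by 0.301%. The highest pairs were *Mfap2* with *Mfap5* (r = 0.91) and *Fbn1* with *Eln* (0.85), and *Fbln1* had the lowest, at −0.09 with *Eln* and 0.05 with *Fbn1*. Over all genes at that level, the patterns most like *Fbn1* were those of *Atrnl1* (0.98), *Anapc7* (0.96) and *Adgrl4* (0.96). Those most like *Eln* were *Slc2a4* (0.995), *Akap6* (0.99) and *Sypl2* (0.99). Closest to *Mfap2* were *Cald1* (0.98), *Timp3* (0.97) and *Mrvi1* (0.97), and closest to *Mfap5* were *Pbxip1* (0.98), *Abcc9* (0.97) and *Msrb1* (0.97). For *Fbln1* they were *Rps6ka5* (0.94), *Meis3* (0.93) and *Mapkapk2* (0.93), for *Fbln2* *Mmp11* (0.94), *Taf6* (0.93) and *Galnt10* (0.92), and for *Fbln5* *Fign* (0.96), *Tpsb2* (0.955) and *Tmx4* (0.95). AL 3 and CR 5, the libraries with the lowest skeletal muscle markers of their diets, were also the lowest of their diets for *Fbn1*, *Eln*, *Mfap2* and *Mfap5*, and the part of that difference in these correlations was not tested.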

How the data were processed

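In both tissues, the deposited values are log2(count / size factor + 1). The authors trimmed single reads with cutadapt, aligned them with STAR, counted them per gene with HTSeq and scaled them with DESeq2 on the ROSALIND platform, with versions not given in the sources used here. The study's methods name genome build mm10 and the submitters' processing notes GRCm39. The labels name a stranded mRNA kit and the methods an oligo(dT)-primed kit, so library type and strand were not settled.

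The log2 step was undone to give normalized counts and whole reads (100% within 0.01 of a whole read). Floors of 3 reads cover counting error only. Each table held 24557 features. Of these, 5 repeated a symbol and were left out (the first of each was used), 483 had no gene identifier, and 0 columns were unmapped. Each tissue was fitted with limma 3.58.1 (statmod 1.5.0, R 4.3.3, intensity trend, robust moderation, two-sided) on log2(normalized count + 1), a scale that understates changes of low genes, over genes averaging 10 normalized counts or more. Genes were called at a Benjamini-Hochberg adjusted p under 0.05 and a fold over 1.5. Tissue differences used combined standard errors with Satterthwaite degrees of freedom, which takes the tissues as independent, and pairing by shared title was an alternative. Exonic lengths, strands and overlaps came from the GENCODE annotation of GRCm38.p6, and chromosome positions from RefSeq. All 8 genes were named, and from each pathway list the genes called in either tissue or, with none, the 3 smallest p-values in the conjunctiva, and for likeness the 3 genes of highest r. The 8 genes and all lists were chosen with earlier results of these data known. No count model was run on log2 values, and limma voom on the recovered reads was an alternative.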

Additional observations from a re-analysis of the deposited data

Results flagged for a closer look

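Of 31 groups of libraries examined (8 genes, 2 tissues, 2 diets, leaving out a group whose libraries held at most 3 reads), 3 held a library far from the others, where chance would flag about 1 in 20 groups of normally distributed values. Low counts such as these are not normally distributed, and the rate for them was not computed. All 3 were CR cornea groups. *Fbn2* was at 119 normalized counts in cornea CR 1 and at most 12.3 in the other CR libraries. *Fbln5* was at 26.5 in cornea CR 3 and at most 7.43 in the others. *Mfap2* was at 3.71 in cornea CR 7, which is 4 reads, and at 0 in the others.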

How the results depend on the processing

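In the conjunctiva, 149 of 167 values of single genes under the alternatives kept their sign and their side of the threshold. The count of 1 gene called became 3 with array weights (*Eln* −1.48, limma adjusted p = 0.0166, and *Fbln1* −0.59, limma adjusted p = 0.0463, were added to *Fbn1*). It became 2 relative to the fibroblast markers, where *Fbn2* and *Eln* were called and *Fbn1* was not, and 0 with these markers as a covariate. It was 2 without AL 3 and CR 5, and 1 to 2 without each library in turn (2 without CR 5). With the replicate number as a block, which leaves out CR 2, 0 genes were called and *Fbn1* had −1.30 (limma adjusted p = 0.0613). The deviations of same-numbered libraries had r from −0.06 to 0.05 in the conjunctiva (4 pairs) and from −0.30 to 0.29 in the cornea (4 pairs). In the conjunctiva 0 AL libraries correlated best with their own number, and in the cornea 1 did. So few pairs cannot show whether equal numbers mark something shared, such as a batch. *Fbn1* kept its call under all alternatives but the block and the 2 that use the fibroblast markers. Relative to the fibroblast markers, the log2 changes turned to 0.257 (*Fbln1*), 0.349 (*Fbln2*), 0.470 (*Fbln5*), 0.47 (*Mfap2*) and 0.131 (*Mfap5*), and with them as a covariate to 0.105 (*Fbln2*), 0.565 (*Fbln5*), 0.883 (*Mfap2*) and 0.0920 (*Mfap5*). By construction the first alternative subtracts the fall of the markers, and the cause of the other shifts was not tested.

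In the cornea, 72 of 82 values kept their sign and side. The count of 0 genes called became 1 with array weights (*Eln*) and stayed at 0 to 0 without each library. With the zero-read share of each library as a covariate, *Fbn2* turned to 1.11. *Fbln2* turned to 0.101 with a pseudocount of 10, 0.878 with quantile normalization, 0.208 and 0.241 with the fibroblast markers as a scale and as a covariate, and ranged from −0.545 to 0.644 without each library. For the difference between tissues, 82 of 88 values kept their sign and side. It turned to −0.476 for *Eln* with a pseudocount of 10 and to 0.596 for *Fbln2* with the replicate block by shared title, and without each library it ranged from −1.07 to 0.118 for *Fbln2* and from −2 to 0.0258 (without cornea AL 4) for *Fbn2*. Counts at or near the floor in some libraries limit *Fbn2* in CR conjunctiva and all genes but *Fbln1* in the cornea. Counts of called genes over all genes moved from 50 in the conjunctiva to 149 with array weights, 12 with the block, 5937 relative to the fibroblast markers, 24 with them as a covariate and 26 to 127 without each library. In the cornea they moved from 150 to 705 with array weights, 52 with the block, 62 with the zero-read share as a covariate, 34 relative to the fibroblast markers and 53 to 534 without each library.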
